A study of Mus musculus with 45 samples.

Results

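Genes of retinoid metabolism were examined in small intestinal tuft cells of mice fed a reference fat diet (RFD) or a high fat diet (HFD). The group held 9 genes of the 47729 in the tables: Scarb1, Bco1, Isx, Rbp2, Lrat, Rdh7, Dhrs3, Dhrs4 and Aldh1a1. They were taken by symbol and chosen by their diet differences between HFD and RFD in these same libraries, so that their diet differences are given as a description, with standard errors and without p-values. Each of the 45 libraries came from 1 male C57BL/6J mouse, aged 5 weeks at arrival and kept at 30 °C. By the methods the mice shared cages, and the cages of a group were taken on consecutive days. The main fits held no term for cage or day. The set labelled STF, fed for 9 weeks, held 11 mice on RFD and 11 on HFD, and the set labelled LTF, fed for 22 weeks by the methods of the study, held 11 and 12. RFD had 10% and HFD 60% of its energy from fat, and the sample labels state 9 weeks for both sets. No transgene was named for any group. By the methods, the mice fed for 22 weeks also had a glucose test by gavage and an insulin test by injection in their last weeks. These tests were not given to the mice fed for 9 weeks. The methods give the sorted cells as EpCAM+ CD45+ Siglec-F+, but also state that cells with CD45 were excluded. The gate was meant to enrich for tuft cells, the rare chemosensory cells of the epithelium.

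Retinoids come from the diet as retinyl esters or as carotenes. Scavenger receptor SCARB1 takes up carotenoids and other lipids at the brush border, BCO1 cleaves beta-carotene to retinal, and ISX, a homeodomain factor induced by retinoic acid, represses the genes of both. Retinal and retinol are carried by the cellular binding protein RBP2, dehydrogenases and reductases convert one into the other, LRAT esterifies retinol for export, and ALDH1A1 oxidises retinal to retinoic acid, the ligand of the nuclear retinoic acid receptors. Most of this machinery is known from absorptive enterocytes rather than from tuft cells.

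Between 189340 and 4690213 reads on genes were counted per library, and all 12 tuft and all 14 enterocyte markers had reads. RNA of both cell types was therefore present, and in bulk libraries fewer cells of a type cannot be told apart from less RNA per cell. The summed level of the 12 tuft markers (Dclk1, Trpm5, Pou2f3 and others) ranged from 3708 to 24872 CPM (normalised reads per unit of depth, with 1 scaling over all libraries) on RFD at 9 weeks, from 321 to 23001 on HFD at 9 weeks, from 3733 to 23167 on RFD at 22 weeks and from 1017 to 23502 on HFD at 22 weeks. The 14 enterocyte markers (Alpi, Sis, Fabp1, Apoa1 and others) summed to between 5461 and 15632, 5656 and 23396, 7190 and 32754, and 10827 and 29473 CPM in the same groups. No tuft or enterocyte marker had a median of 0 reads in any group. Mouse 80 on HFD at 9 weeks and mouse 3 on RFD at 22 weeks stood apart. The former had the lowest mean tuft marker level of all libraries, 3.56 on the log2(CPM + 1) scale, and the latter had the fewest genes with a read, 8580. Isx, Dhrs4 and Aldh1a1 had no read in mouse 3, which also had the highest levels of Rbp2 and Lrat on RFD at 22 weeks. Values without these libraries are given where they change a sign or a call.

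Promoter sequences were read for the members from RefSeq on GRCm38.p6, where 8 of the 9 had at least 1 window. Those of the 3 genes called in a diet contrast are shown, and that of Bco1, which held the longest motif match. Each line gives the 250 bases before the start site, 5′ to 3′ on the strand of the gene, with matches to the nuclear receptor half-site AGGTCA on either strand in capitals. The Bco1 window is chr8:117095615-117095864, plus strand, that of Rbp2 is chr9:98490287-98490536, plus strand, that of Dhrs4 is chr14:55478508-55478757, plus strand, and that of Aldh1a1 is chr19:20601718-20601967, plus strand, the one of its 2 windows nearest to an annotated GENCODE start.
Bco1: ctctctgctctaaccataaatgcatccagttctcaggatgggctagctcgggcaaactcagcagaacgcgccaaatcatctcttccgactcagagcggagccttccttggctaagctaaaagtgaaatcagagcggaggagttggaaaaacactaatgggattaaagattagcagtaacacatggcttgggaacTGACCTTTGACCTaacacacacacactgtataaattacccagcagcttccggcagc
Rbp2: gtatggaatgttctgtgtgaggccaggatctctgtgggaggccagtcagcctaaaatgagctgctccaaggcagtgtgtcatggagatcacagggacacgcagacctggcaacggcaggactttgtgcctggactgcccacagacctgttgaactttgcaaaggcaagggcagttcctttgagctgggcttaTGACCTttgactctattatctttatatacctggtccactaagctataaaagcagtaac
Dhrs4: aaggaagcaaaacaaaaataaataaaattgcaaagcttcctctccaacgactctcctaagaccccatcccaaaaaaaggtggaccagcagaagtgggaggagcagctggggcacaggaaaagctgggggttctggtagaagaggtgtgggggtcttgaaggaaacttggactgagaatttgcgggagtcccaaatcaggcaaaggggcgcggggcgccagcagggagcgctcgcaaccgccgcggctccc
Aldh1a1: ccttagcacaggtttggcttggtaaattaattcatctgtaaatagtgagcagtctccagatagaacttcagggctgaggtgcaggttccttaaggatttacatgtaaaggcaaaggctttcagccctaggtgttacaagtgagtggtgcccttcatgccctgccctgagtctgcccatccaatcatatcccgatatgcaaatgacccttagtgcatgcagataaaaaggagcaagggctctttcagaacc

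In the Bco1 window the capitals form 2 half-sites on the opposite strand with 1 base between them, a full match to the direct repeat AGGTCANAGGTCA, from 56 to 44 bases before the start. The direct repeat was found in 11 of 32817 windows of this length (0.0335%), and the single half-site, which overlaps every repeat, in 4604 (14.0%). Rbp2 had 1 half-site, at 58 to 53 bases before its start, and Rdh7 had 1 in the farther of its 2 windows, at 105 to 100 bases. The windows of Dhrs4 and Aldh1a1 held no half-site. No window of a member held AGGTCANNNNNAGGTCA, found in 0.00914% of windows, or the homeodomain core TAATTA, found in 4.85%. These are matches of letters only.

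All 9 members passed the filter on low counts, over 5 reads in 6 or more of the 45 libraries. Levels are compared between genes per transcript length, in the deposited TPM, a unit scaled by transcript length and depth. On RFD at 9 weeks Rbp2 had a median of 448.1 TPM, from 162.3 to 876.2, above every TPM value of Dhrs4, the next gene, at a median of 49.1 and from 17.9 to 70.5. Rdh7, Dhrs3, Isx and Aldh1a1 followed with medians of 19.7, 17.8, 13.9 and 11.2 TPM, and their ranges overlapped one another. Scarb1, Lrat and Bco1 were lowest, at 3.70, 1.90 and 0.140 TPM. On HFD at 22 weeks the median of Rbp2 was 3898 TPM and that of Dhrs4 86.7, and Aldh1a1 came next at 82.4, ahead of Rdh7 at 66.2, with ranges that overlapped. Bco1 was the lowest there too, at 0.655 TPM.

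At 9 weeks the log2 difference between HFD and RFD was above 0 for 9 of the 9 members, with a median of 0.81, beside a median of -0.05 over all 14020 genes tested. At 22 weeks it was above 0 for 7 of 9, with a median of 1.02, beside -0.03 over all genes. Past an adjusted p of 0.1 (quasi-likelihood test of edgeR, Benjamini-Hochberg over all genes) were 2 of the 9 at 9 weeks, Rbp2 and Dhrs4, where 3.32% of all genes were called, and 2 of the 9 at 22 weeks, Rbp2 and Aldh1a1, where 0.792% were called. Without the libraries that stand apart, 8 of 9 were above 0 in each set and 3 were called at 22 weeks, Dhrs4 being added. With the tuft marker mean as a covariate 6 of 9 were above 0 at 9 weeks, those of Bco1, Lrat and Dhrs3 being below it. The smallest of the 9 at 9 weeks was that of Bco1, 0.09 with an SE of 0.94. The counts of members called repeat what the choice of the genes used.

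**Figure D1:**
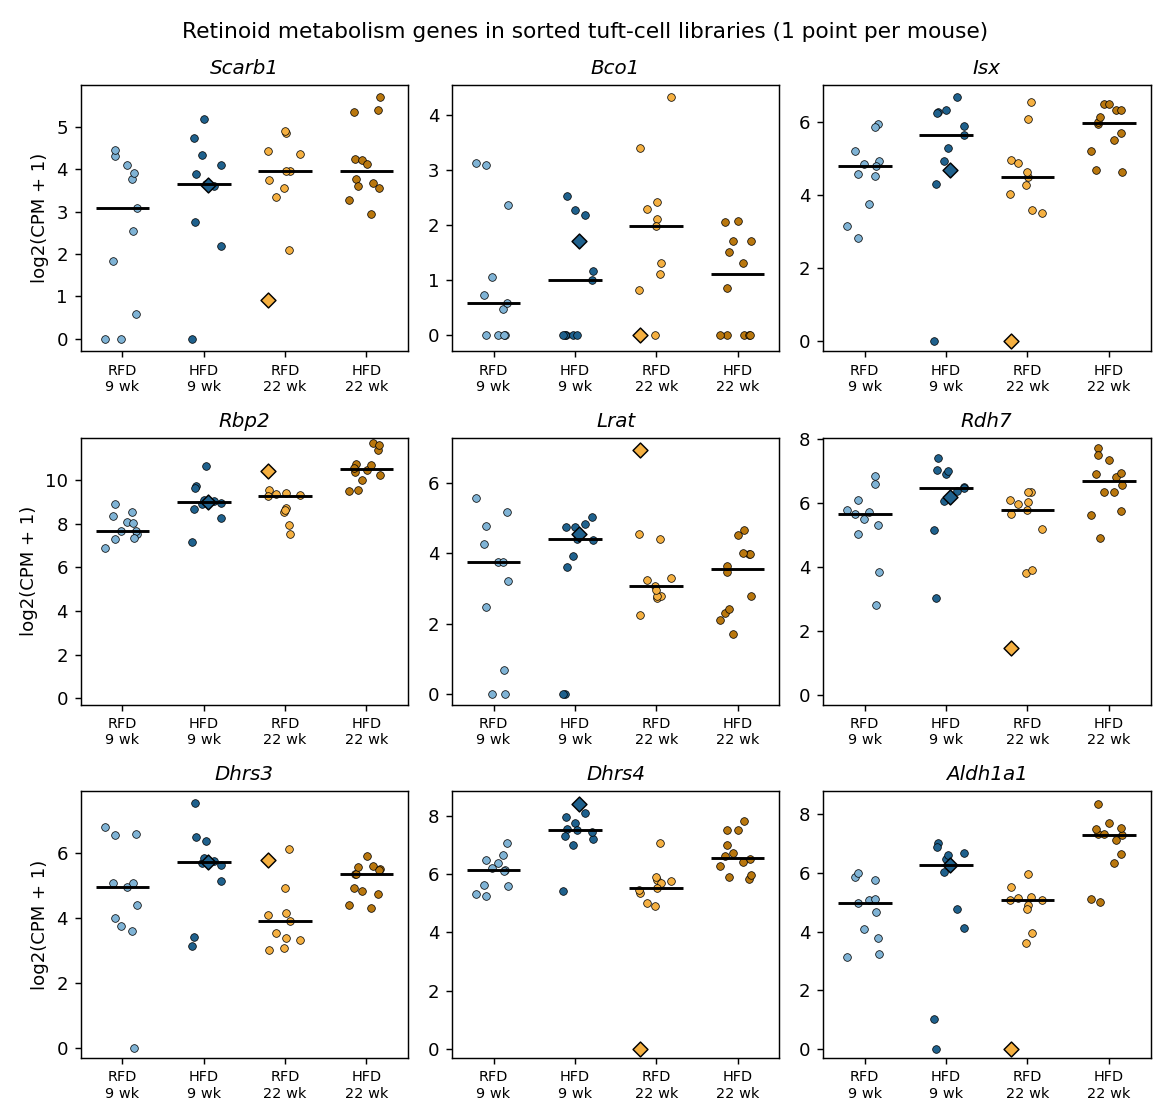
Levels of the 9 genes in each mouse as log2(CPM + 1), with 1 point per mouse, the group median as a line, and the 2 libraries that stand apart as diamonds. Rbp2 was higher on HFD in both sets (medians 204.8 and 509.4 CPM at 9 weeks, 611.5 and 1480 CPM at 22 weeks), and Bco1 had the lowest median of the 9 in all 4 groups.

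Uptake of carotenoids was represented by Scarb1, on chromosome 5 from 125277087 to 125341094 (GENCODE annotation of GRCm38, as for the genes that follow). It had from 0 to 21.1 CPM on RFD at 9 weeks (median 7.50), against 0 to 35.6 CPM on HFD (median 11.6). At 22 weeks the lowest, median and highest values were 0.877, 14.6 and 29.0 CPM on RFD and 6.71, 14.5 and 51.1 CPM on HFD. On HFD, 2 of 11 mice at 9 weeks and 3 of 12 at 22 weeks lay above every mouse on RFD, and the others lay within the RFD range. Its log2 difference was 0.65 (SE 0.64, n = 11 and 11) at 9 weeks and 0.45 (SE 0.41, n = 11 and 12) at 22 weeks.

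Bco1, the gene of the carotene-cleaving enzyme on chromosome 8 from 117095854 to 117133720, was scarcely detected. At 9 weeks its median was 0.495 CPM on RFD against 1.01 CPM on HFD, with no read in 4 and 5 of 11 libraries and at most 7.78 and 4.81 CPM. At 22 weeks the median was 2.98 CPM on RFD, up to 19.2 CPM, and 1.152 CPM on HFD, up to 3.20 CPM, with no read in 2 of 11 and 5 of 12 libraries. Of the mice on HFD at 22 weeks, 10 of 12 lay below the RFD median. The log2 differences were 0.09 (SE 0.94) and -1.76 (SE 0.81), and the first went against the ratio of the mean CPM, 0.754, and turned its sign in 11 of 22 fits with 1 library left out. Without the mouse of highest Bco1 on RFD at 22 weeks, mouse 30, the second was -1.12.

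Isx, the regulator on chromosome 8 from 74873173 to 74893506, had from 6.03 to 60.4 CPM on RFD at 9 weeks (median 26.8), against 0 to 101.3 CPM on HFD (median 48.4). On RFD at 22 weeks it had from 0 to 92.9 CPM (median 21.2), and on HFD from 23.7 to 88.9 CPM (median 61.5). All 12 mice on HFD at 22 weeks lay above the RFD median, although mouse 1 on RFD exceeded every one of them. The log2 differences were 0.81 (SE 0.47) and 1.02 (SE 0.41). Of the fits with 1 library left out, Isx was called at 9 weeks only without mouse 64 on HFD, in which it had no read (0.94), and at 22 weeks only without mouse 1 on RFD (1.44).

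Rbp2, which binds retinol and retinal inside the absorptive cell and lies on chromosome 9 from 98486115 to 98509781, was by far the most abundant member. On RFD at 9 weeks it had 116.7 CPM in the lowest mouse, 204.8 in the median and 485.0 in the highest, and on HFD 142.7, 509.4 and 1604 CPM. Of the 11 mice on HFD, 7 lay above every mouse on RFD and 10 above the RFD median. The mean rose 2.43-fold, from 249.3 ± 108.9 to 604.9 ± 385.1 CPM (SD, n = 11 each), a log2 difference of 1.32 (SE 0.31).

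After 22 weeks of feeding Rbp2 had 181.8, 611.5 and 1368 CPM on RFD in the lowest, median and highest mouse, and 722.0, 1480 and 3309 CPM on HFD. All 12 mice on HFD lay above the RFD median and 7 above every mouse on RFD, the highest of which was mouse 3. Without mouse 3 the highest RFD value was 754.8 CPM. The means were 574.6 ± 322.8 (n = 11) and 1712 ± 883.1 CPM (n = 12), a 2.98-fold change and a log2 difference of 1.58 (SE 0.29), or 1.78 without mouse 3. In the 3 series of mouse numbers (1 to 8, multiples of 10, others from 21 to 64), the difference in mean log2(CPM + 1) was 1.28, 1.59 and 0.45 at 9 weeks and 1.53, 1.41 and 1.61 at 22 weeks.

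Storage of retinol as ester was represented by Lrat, on chromosome 3 from 82892579 to 82903973. The lowest, median and highest values were 0, 12.3 and 46.7 CPM on RFD at 9 weeks and 0, 20.3 and 31.5 CPM on HFD. At 22 weeks they were 3.71, 7.34 and 120.1 CPM on RFD and 2.29, 10.7 and 24.4 CPM on HFD. Mouse 3 alone held the value of 120.1 CPM, and without it the highest on RFD was 22.3 CPM. The log2 difference was 0.50 (SE 0.78) at 9 weeks, and at 22 weeks it was -0.78 (SE 0.53) with mouse 3 and 0.18 without it.

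Rdh7, a retinol dehydrogenase gene on chromosome 10 from 127884028 to 127888817, had from 6.06 to 113.5 CPM on RFD at 9 weeks (median 49.2), against 7.16 to 169.8 CPM on HFD (median 88.4). On RFD at 22 weeks it had from 1.75 to 79.9 CPM (median 53.6), and on HFD from 29.1 to 210.1 CPM (median 102.3). On HFD, 4 of 11 mice at 9 weeks and 9 of 12 at 22 weeks lay above every mouse on RFD. The log2 differences were 0.83 (SE 0.41) and 1.18 (SE 0.37), and of the fits with 1 library left out only that without mouse 1 on RFD called it at 22 weeks (1.35). It was called there as well with DESeq2 and with the number series as a term (1.29), a fit without mouse 65 on HFD. Reads of its near paralogs Rdh1, Rdh9, Rdh16, Rdh16f2 and Rdh19 could be divided with it during counting. The most abundant of these, Rdh9, had 295 reads in all on HFD at 22 weeks, beside 3093 of Rdh7.

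Of the genes whose products reduce retinal back to retinol, Dhrs3 lies on chromosome 4 from 144892827 to 144928209. It had from 0 to 108.9 CPM on RFD at 9 weeks (median 29.8), against 7.84 to 181.2 CPM on HFD (median 51.8). At 22 weeks it had from 7.11 to 68.8 CPM on RFD (median 13.9) and from 18.6 to 58.9 CPM on HFD (median 39.6), where 12 of 12 mice lay above the RFD median. The log2 differences were 0.73 (SE 0.59) and 0.75 (SE 0.35). Of the fits with 1 library left out, only that without mouse 1, the highest on RFD, called it at 22 weeks (1.17).

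Dhrs4, on chromosome 14 from 55478758 to 55490340, separated the diets most fully at 9 weeks. Its lowest, median and highest values were 36.9, 68.9 and 132.2 CPM on RFD and 41.8, 182.7 and 342.6 CPM on HFD. Of the 11 mice on HFD, 9 lay above every mouse on RFD, and mouse 80 was the highest of them. The mean rose 2.67-fold, from 71.3 ± 28.8 to 190.1 ± 79.7 CPM (SD, n = 11 each), a log2 difference of 1.43 (SE 0.27), or 1.27 without mouse 80. Within the 3 number series it was 1.36, 1.52 and 0.80.

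Levels of Dhrs4 at 22 weeks were 0, 45.3 and 134.1 CPM on RFD and 56.0, 94.2 and 224.1 CPM on HFD. The 0 was that of mouse 3, and the lowest of the other mice on RFD had 28.9 CPM. On HFD, 12 of 12 mice lay above the RFD median and 3 above every mouse on RFD. The log2 difference was 1.18 (SE 0.38), not past the threshold, and 1.04 without mouse 3, where it was called. Without mouse 1, the highest on RFD, it was called too (1.53). DESeq2 called it at 22 weeks with all libraries.

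Aldh1a1, on chromosome 19 from 20492715 to 20643465, makes retinoic acid from retinal. At 9 weeks it had 7.78, 30.1 and 62.5 CPM on RFD in the lowest, median and highest mouse and 0, 75.5 and 128.7 CPM on HFD. The HFD mice fell on both sides of RFD, since 7 of 11 lay above every mouse on RFD and 2 below every one. The log2 difference was 1.07 (SE 0.60), and in the 3 number series it was 1.91, 1.77 and -2.98. The sign was thus turned in the last series, of 4 mice on RFD and 3 on HFD.

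The largest diet difference of any member was that of Aldh1a1 at 22 weeks. It had 0, 32.7 and 61.3 CPM on RFD and 30.99, 156.5 and 328.9 CPM on HFD. Of the 12 mice on HFD, 10 lay above every mouse on RFD and 11 above the RFD median. The mean rose 4.97-fold, from 29.5 ± 16.7 (n = 11) to 146.3 ± 81.4 CPM (n = 12), a log2 difference of 2.30 (SE 0.41), or 2.17 without mouse 3, whose value was the 0. The number series gave 3.36, 1.65 and 2.23. The near paralog Aldh1a7 had 530 reads in all on HFD at 22 weeks beside 3836 of Aldh1a1, and reads shared by the pair were divided during counting.

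**Figure D2:**
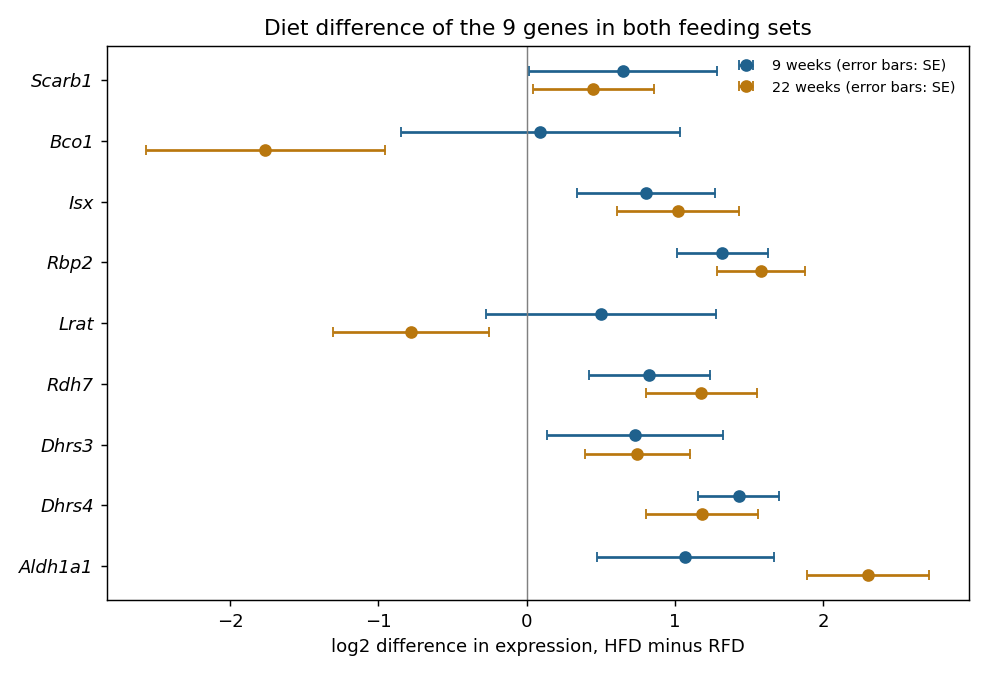
Log2 difference in expression between HFD and RFD for the 9 genes at 9 weeks (blue) and 22 weeks (brown), with standard errors. The largest value is that of Aldh1a1 at 22 weeks (2.30, SE 0.41), and Bco1 at 22 weeks (-1.76, SE 0.81) and Lrat at 22 weeks (-0.78, SE 0.53) lie below 0.

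Cell type markers were measured beside the members. Of the 12 tuft markers, 0 had a positive log2 difference at 9 weeks (median -0.99) and 2 at 22 weeks (median -0.42), and none was called. Of the 14 enterocyte markers, 3 were positive at 9 weeks (median -0.33, 1 called lower) and 7 at 22 weeks (median 0.01, 2 called lower). With the enterocyte marker mean as a covariate, the log2 difference of Rbp2 was 1.61 and 1.68 in the 2 sets and that of Aldh1a1 1.36 and 2.22. With the tuft marker mean as a covariate, Rbp2 was at 0.93 and Dhrs4 at 0.92 at 9 weeks, and no member was called, whereas at 22 weeks Rbp2 (1.43) and Aldh1a1 (2.25) remained called. The 5 Paneth markers were positive in 5 of 5 in both sets (medians 2.35 and 1.33, none called). The median of the goblet markers was 0.43 and 0.77, that of stem cell markers 0.87 and 0.65, and that of enteroendocrine markers 0.62 and -2.46, with 1 stem cell marker called higher at 9 weeks and none of the others. Macrophage markers were positive in 1 of 4 at 9 weeks (median -0.74) and 4 of 4 at 22 weeks (2.54), and T cell markers in 0 of 4 in both sets (-1.31 and -1.47), with none called. The part of these cell types in the members' differences was not tested.

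Of the other genes of retinoid handling, a list of 51, 49 had a read and 31 passed the filter. At 9 weeks 1 of the 31 was called higher and 1 lower on HFD, beside 3.32% of all genes, and at 22 weeks 3 were called higher and 1 lower, beside 0.792%. Their median log2 difference was 0.14 and 0.18. Unadjusted p-values were under 0.05 for 7 (22.6%) and 8 (25.8%) of the 31, beside 18% and 10.3% of all genes. The list was drawn up with earlier results of these data known. These shares, and the p-values by diet of its genes below, are therefore not free of that choice. None of the 3 receptor genes tested (Rara, Rxra and Rxrb), of the 11 retinol dehydrogenase and alcohol dehydrogenase genes or of the 4 genes of binding proteins was called in either set. Among the alternatives, Adh4 was called at 22 weeks with DESeq2 and with the number series as a term. The latter fit, without mouse 65 on HFD, gave 1.61, against 1.45 for all libraries without the term. At 9 weeks Adh1 was called with DESeq2, with the enterocyte covariate (-1.23, against -0.97 without it) and in 1 fit of all libraries, and Rara with the enterocyte covariate (-0.99, against -0.24). With no filter Ttr was called at 9 weeks and Rbp4 at 22 weeks. So were Sdr16c5 and Aldh1a2, which fail the filter, and Stra6l, Cd36 and Akr1b8 at 9 weeks, and Aldh1a7 at 22 weeks. Stra6l (-0.93 at 9 weeks) was called there with DESeq2 and with the enterocyte covariate (-1.22) too. It was also called without mouse 20 on RFD and without mouse 64 on HFD. Of the receptor, dehydrogenase and binding protein genes, some were added by leaving out 1 library. At 9 weeks these were Adh1 (without mouse 20 on RFD or mouse 64 on HFD) and Ttr (without mouse 64). At 22 weeks they were Adh4 and Rbp7 (without mouse 1 on RFD) and Rbp4 (without mouse 5 on HFD). Among the 18 with a read that failed the filter were Stra6, Crabp2, Aldh1a2, Aldh1a3, Cyp26a1, Cyp26b1, Rarb and Rarg, and no read was found for Rpe65 and Crabp1.

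Retsat, which encodes retinol saturase, was the one gene of this list called higher in both sets. It had from 7.78 to 100.6 CPM on RFD at 9 weeks (median 45.4), against 15.6 to 214.6 CPM on HFD (median 148.8), and 9 of 11 mice on HFD lay above every mouse on RFD. Its log2 difference was 1.42 (SE 0.35, adjusted p = 0.0543, edgeR's quasi-likelihood test). At 22 weeks the medians were 49.9 CPM on RFD against 176.5 CPM on HFD, with a log2 difference of 1.40 (SE 0.36, adjusted p = 0.0808 from the same test). Both calls were near the threshold. The first was lost in 4 of 22 fits with 1 library left out, those without mouse 6, 8, 70 or 80 on HFD (log2 differences of 1.29 to 1.59 over all 22), and the second in 16 of 23 (1.29 to 1.85). The first was also lost with limma and with the tuft covariate, and the second with RLE size factors, limma and in 1 fit of all libraries.

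Cd36, a fatty acid translocase that also takes up carotenoids, had from 0 to 33.6 CPM on RFD at 22 weeks (median 12.7), against 12.4 to 119.9 CPM on HFD (median 45.5). On HFD 8 of 12 mice lay above every mouse on RFD, with a log2 difference of 2.03 (SE 0.42, adjusted p = 0.0215, edgeR's quasi-likelihood test), called in 23 of 23 fits with 1 library left out. At 9 weeks its medians were 7.12 and 19.2 CPM and its log2 difference 1.66 (SE 0.58, adjusted p = 0.136 from the same test). It was called at 9 weeks with DESeq2, with no filter, with the enterocyte covariate (2.09) and in 1 fit of all libraries. The other alternatives did not call it there, and 2 of 22 fits with 1 library left out did.

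The aldo-keto reductase genes Akr1b7 and Akr1b8, relatives of enzymes that reduce retinal, went in opposite directions. Akr1b7 fell at 9 weeks from a median of 32.5 CPM on RFD (14.4 to 79.7) to 12.8 CPM on HFD (0 to 16.7). No mouse on HFD lay above the RFD median, and the log2 difference was -1.94 (SE 0.43, adjusted p = 0.0351, edgeR's quasi-likelihood test). At 22 weeks it fell from a median of 67.0 to 8.51 CPM, with a log2 difference of -2.14 (SE 0.55, adjusted p = 0.0851 from the same test), and this call was lost in 17 of 23 fits with 1 library left out, mouse 3 among them (-2.65 to -2.01). Akr1b8 rose at 22 weeks from a median of 1.47 CPM (0 to 6.14) to 9.17 CPM (1.45 to 22.3), with a log2 difference of 2.68 (SE 0.62, adjusted p = 0.0425 from the same test). At 9 weeks it was not called (2.42, SE 0.83, adjusted p = 0.128 from the same test). With no filter, with the enterocyte covariate (2.99) and in 1 fit of all libraries it was called at 9 weeks, but not in the other alternatives. Of the fits at 22 weeks with 1 library left out, only that without mouse 7 on HFD lost the call of Akr1b8 (2.50, adjusted p = 0.112 in edgeR). At 22 weeks DESeq2 and the single fit of all libraries did not call it either.

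Next to these by p at 9 weeks stood Ttr (1.98, SE 0.73, edgeR adjusted p = 0.155), the plasma carrier of retinol-binding protein. At 22 weeks the next was Aldh1a7 (1.72, SE 0.52, adjusted p = 0.172 from the same test), with a median of 5.38 CPM on RFD and 20.5 CPM on HFD.

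**Figure D3:**
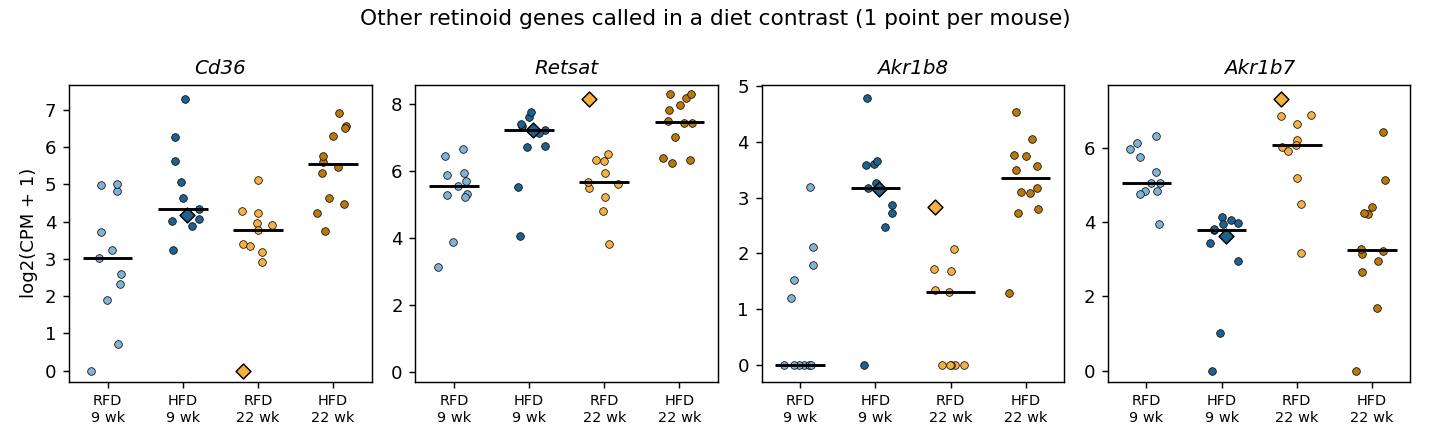
Levels of Cd36, Retsat, Akr1b8 and Akr1b7 in each mouse as log2(CPM + 1), with 1 point per mouse, the group median as a line, and the 2 libraries that stand apart as diamonds. At 9 weeks every HFD value of Akr1b7 lies at or below 16.7 CPM, under the RFD median of 32.5 CPM, and Retsat has a median of 45.4 CPM on RFD and 148.8 CPM on HFD.

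The diet differences of the 2 sets were compared by an interaction over all 45 libraries. No gene of 14020 (0%) had an adjusted p under 0.1 in edgeR's quasi-likelihood test, 451 had an unadjusted p under 0.05, and DESeq2 called 1. For Aldh1a1 the difference at 22 weeks exceeded that at 9 weeks by 1.28 on the log2 scale (SE 0.74). That of Bco1 was lower by -1.87 (SE 1.33) and that of Lrat by -1.29 (SE 0.97). Those of Rbp2 (0.30, SE 0.42) and Dhrs4 (-0.21, SE 0.47) were within 1 standard error of 0. Whether the diet acted differently at the 2 times on any of these genes was thus not shown.

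The long and the short set were compared on the same diet. This contrast was not the one that chose the genes, but it shares the libraries and group levels that did. The p-values of members in it are therefore not free of that choice. Feeding time, age, the set of libraries and the glucose and insulin tests of the 22-week mice cannot be told apart in this contrast. Rbp2 was higher in the 22-week set on RFD, with means of 249.3 and 574.6 CPM and 10 of 11 mice above the 9-week median (log2 difference 1.20, SE 0.31, adjusted p = 0.037, edgeR's quasi-likelihood test), where 1.46% of all genes were called, 0.977% higher and 0.478% lower. Without both libraries that stand apart it was 1.00 with an adjusted p of 0.129, and over its alternatives it ranged from 0.0127 to 0.768. On HFD its means were 604.9 and 1712 CPM, with 12 of 12 mice above the 9-week median (1.503, SE 0.30, adjusted p = 0.00183 from the same test), where 5.78% of all genes were called, 3.47% higher and 2.31% lower. The adjusted p was 0.00437 without both libraries that stand apart.

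Enterocyte markers moved with Rbp2 between the sets. On RFD 12 of the 14 were higher in the 22-week set (median 0.94, 5 called higher), and on HFD 14 of 14 (median 1.18, 9 called higher). Markers of other cell types differed between the sets too. Tuft markers were higher in 8 of 12 on RFD (median 0.35, none called) and in 12 of 12 on HFD (median 0.82, 1 called). On HFD 4 of 6 enteroendocrine markers were called lower (median -3.96) and 1 of 4 stem cell markers (median -1.03), and the 5 Paneth markers had a median of -2.25 with none called. With the enterocyte marker mean as a covariate the log2 difference of Rbp2 was 0.27 on RFD and 0.38 on HFD. Its adjusted p was then 0.768 and 0.316 (edgeR's quasi-likelihood test). The part of these cell types in the difference of Rbp2 between the sets was not tested.

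No other member was called between the sets. The split of all calls moved with the scaling, from 137 higher and 67 lower to 135 and 104 on RFD with RLE size factors, and from 486 and 324 to 359 and 458 on HFD. On HFD, Aldh1a1 had means of 64.9 and 146.3 CPM (log2 difference 1.19, SE 0.51, adjusted p = 0.217, edgeR's quasi-likelihood test), and -0.0007 with the enterocyte covariate. Dhrs4 had means of 190.1 and 112.3 CPM (-0.76, SE 0.33, adjusted p = 0.213 from the same test). On RFD the differences of Isx (-0.00), Rdh7 (-0.12) and Aldh1a1 (-0.10) were within 1 standard error of 0.

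Within a diet and set, the level of each member was related to the mean of the 14 enterocyte markers, both as log2(CPM + 1), in 36 relations with a two-sided permutation test of 100000 resamples. Past an adjusted p of 0.1 by both r and rho were 8 of the 36, 11 on the log2(TPM + 1) scale, 6 without the libraries of low depth (mouse 40 on RFD and mouse 50 on HFD at 9 weeks) and 8 without those that stand apart. Rbp2 passed in all 4 groups. On RFD at 9 weeks r was 0.914 (permutation p = 0.0001, adjusted p = 0.0012) and rho 0.918 (p = 0.00017, adjusted p = 0.00306), with r 0.910 without the 2 mice farthest from the median marker level. For HFD at 9 weeks they were 0.895 (permutation p = 0.0001, adjusted p = 0.0012) and 0.891 (p = 0.00055, adjusted p = 0.00495), and r 0.802 without the 2 mice. For RFD at 22 weeks r was 0.950 (permutation p = 1e-05, the smallest that the resamples can give, adjusted p = 0.00036) and rho 0.927 (p = 0.00013, adjusted p = 0.00306), and r 0.948 without the 2 mice. On HFD at 22 weeks r was 0.796 (permutation p = 0.00228, adjusted p = 0.0137) and rho 0.692 (p = 0.0155, adjusted p = 0.07), and r 0.587 without the 2 mice. The libraries of a group share their scaling, and the diet or set plays no part within a group. The permutations treated the mice of a group as exchangeable, with no term for cage, day or number series. On HFD at 9 weeks mice 62, 63 and 64, of the same number series, had the lowest marker means (7.10, 6.80 and 5.87). They also had the lowest Aldh1a1 there (16.6, 0 and 1.05 CPM).

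**Figure D4:**
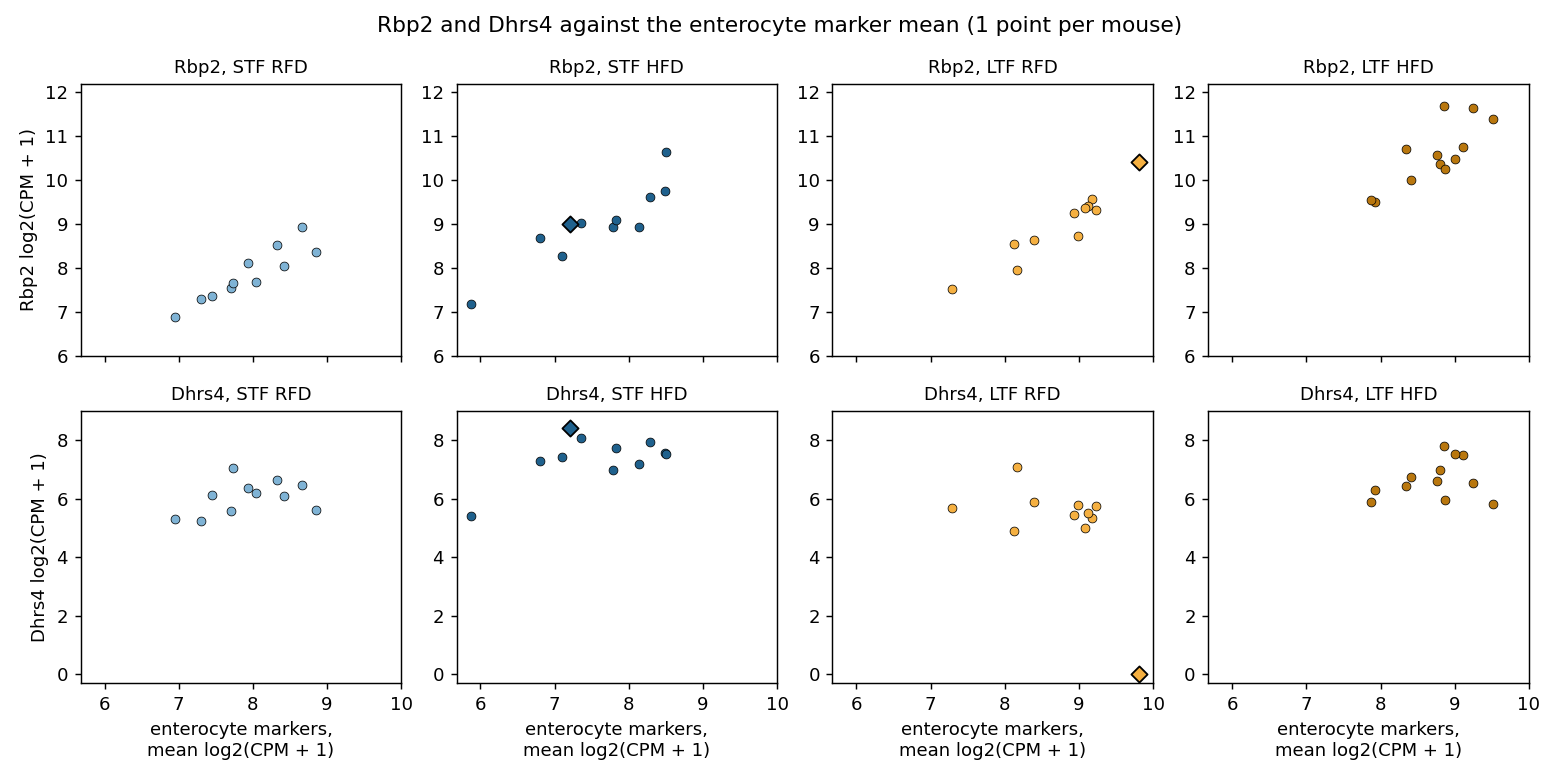
Rbp2 (top) and Dhrs4 (bottom) as log2(CPM + 1) against the mean log2(CPM + 1) of the 14 enterocyte markers, with 1 point per mouse in each of the 4 groups and the libraries that stand apart as diamonds. Rbp2 follows the marker mean in every group (r from 0.796 to 0.950), and Dhrs4 has r between -0.540 and 0.542 with no group past the threshold on this scale.

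Aldh1a1 passed on RFD at 9 weeks (r = 0.746, permutation p = 0.00918, adjusted p = 0.0413; rho = 0.809, adjusted p = 0.0223) and on HFD at 9 weeks (r = 0.855, permutation p = 0.00069, adjusted p = 0.00605; rho = 0.909, adjusted p = 0.00468). Without the 2 farthest mice r was 0.565 and 0.805. On HFD at 22 weeks r was 0.752 (permutation p = 0.00514, adjusted p = 0.0264), but rho did not pass (0.615, adjusted p = 0.145) and r was 0.271 without the 2 farthest mice. On the log2(TPM + 1) scale both passed (r = 0.657, permutation adjusted p = 0.0612; rho = 0.629, adjusted p = 0.0957), with r 0.718 without the 2 farthest mice, so that the dependence on them changed with the scale. On RFD at 22 weeks r was -0.209 with mouse 3 and 0.711 without it. Rdh7 (r = 0.696, permutation adjusted p = 0.0824) and Dhrs3 (r = 0.828, permutation adjusted p = 0.00605) passed on HFD at 9 weeks, where r was 0.743 and 0.526 without the 2 mice. Without the libraries of low depth, the r of Aldh1a1 on RFD at 9 weeks (0.647, permutation adjusted p = 0.125) and that of Rdh7 (0.679, permutation adjusted p = 0.114) no longer passed. Dhrs4, Scarb1 and Bco1 passed by both in no group, although on the log2(TPM + 1) scale Scarb1 did on HFD at 22 weeks (r = 0.678, permutation adjusted p = 0.0494).

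Isx was set against Bco1 and Scarb1, the genes it is known to repress, in the same 4 groups. Of 8 relations none passed by r or by rho with all libraries. The r of Isx with Bco1 was -0.180, 0.506, 0.304 and -0.197 in the order RFD and HFD at 9 weeks, RFD and HFD at 22 weeks, with permutation p-values of 0.596, 0.0734, 0.364 and 0.53. With Scarb1 it was -0.252, 0.675, 0.478 and -0.495, with permutation p-values of 0.45, 0.0698, 0.146 and 0.0997. The adjusted p was 0.266 or higher for every r and 0.239 or higher for every rho with all libraries. Single libraries moved these values. Without mouse 40 on RFD at 9 weeks, the r of Isx with Scarb1 was -0.641 (permutation p = 0.044, adjusted p = 0.201) and rho -0.806 (adjusted p = 0.0589), against -0.469 with it. Without mouse 80 on HFD at 9 weeks, the rho of Isx with Bco1 was 0.782 (permutation adjusted p = 0.0958) and r 0.538. Without mouse 3 on RFD at 22 weeks the r of Isx turned to -0.136 with Bco1 and -0.420 with Scarb1. Bco1 had at most 41 reads in a library, which limits the precision of its r.

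The genes whose levels ran most like those of each member within the groups were found by the mean of 4 within-group r values over the 45 libraries, among all genes tested, as a description. For Rbp2 they were Acsl5 (0.855), Apoa1 (0.854) and Apoa4 (0.848), a fatty acid activating enzyme and apolipoproteins of chylomicrons. Apoa1 is itself on the enterocyte list. For Aldh1a1 they were Ces2g (0.799), Slc3a1 (0.789) and Rdh7 (0.781), and for Rdh7 they were Ces2g (0.840), Aldh1a1 (0.781) and Fam162a (0.771). Ces2g encodes a carboxylesterase and Slc3a1 a subunit of an amino acid transporter of the brush border. Dhrs4 ran most like Srsf3 (0.885), a splicing factor gene, Ahcy (0.866) and Zdhhc6 (0.851). The nearest gene to Isx was Pnpt1 (0.808), to Dhrs3 Kitl (0.815), to Lrat Ftsj3 (0.771), to Scarb1 Ppp1r15a (0.684) and to Bco1 Plxna1 (0.590). The libraries that stand apart were kept in all these means.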

How the data were processed

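Tuft cells were sorted by FACS from the small intestine, and Smart-seq2 cDNA of 45 mice was sequenced in pairs. Per the labels, the authors trimmed reads with Cutadapt 1.15, aligned them with STAR 2.6.0 to GRCm38 and counted them with RSEM. The deposited expected counts are estimates in which reads matching several genes are divided, and 8.79% of those above 0 were not whole. The deposited TPM values were scaled by transcript length and depth by the authors. The deposited FPKM values were not used. The count tables also held 24 columns of other libraries, which were not used. Symbols came from GENCODE M21.

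Expected counts were rounded. Genes with more than 5 reads in at least 6 libraries (14020) were tested with edgeR 4.0.16 (TMM, robust quasi-likelihood test, Benjamini-Hochberg adjustment, threshold 0.1) within each set for diet, and over all 45 libraries for the interaction and the set differences. The standard error was taken as the log2 difference over the square root of F. CPM were scaled by TMM over all libraries, so that levels compare across sets. The SAM-seq test with cell type weights that the study used was not repeated. Correlations used log2(CPM + 1) with a pseudocount of 1 and scipy 1.17.1. DESeq2 1.42.0 and limma 3.58.1 served as alternatives. Fits with the number series as a term left out mouse 84 on RFD at 9 weeks and mouse 65 on HFD at 22 weeks. These mice belong to no series. On simulated counts for 14020 genes the test recovered 60% of 4-fold and 11% of 2-fold changes at 9 weeks and 62% and 23% at 22 weeks.

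The members and lists were chosen with earlier results of these data known. Named were all members, each other retinoid gene called in a diet contrast, the 5 with the smallest p in each set, the near paralogs, and the 3 genes most like each member. Depth was 189340 to 4690213 reads on genes, and 2 libraries had under 500000. No library pair was identical.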

Additional observations from a re-analysis of the deposited data

How the results depend on the processing

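No paired analysis was possible because RFD and HFD mice of a set share no mouse numbers in the labels. For none of the 9 members did the log2 difference by diet move by more than 1 SD of log2(CPM + 1) among RFD mice under any alternative or with any 1 library left out, and the sign of a called member never changed. That SD is one between mice and can be wider than the difference itself. Staying within it therefore does not show that a difference was stable. Lrat at 22 weeks stayed within it while turning from -0.78 to 0.18 without mouse 3. Signs of members not called turned at 9 weeks for Bco1 (to between -0.89, with the tuft covariate, and -0.0036 in 5 alternatives), Lrat (-0.30) and Dhrs3 (-0.07), both with the tuft covariate, and at 22 weeks for Lrat (0.18 without mouse 3). The causes of the moves below were not tested. At 9 weeks the 466 genes called became 1555 with DESeq2, 1698 with no filter, 9 with limma on log2(TPM + 1), 1755 with the enterocyte covariate, 13 with the tuft covariate, 290 without the libraries of low depth and 69 without the libraries that stand apart (an alternative chosen after seeing the data), and 59 to 1996 with 1 library left out (mouse 6 and mouse 64 on HFD). The members called (2) became 0 with limma, 4 with the enterocyte covariate and 0 with the tuft covariate, and 2 to 3 with 1 left out. The other retinoid genes called (2) became 5 with DESeq2, 8 with no filter, 1 with limma, 7 with the enterocyte covariate, 1 with the tuft covariate, 1 without the libraries that stand apart and 5 in 1 fit of all libraries, and 1 to 7 with 1 left out. At 22 weeks the 111 genes called became 347 with DESeq2, 435 with no filter, 51 with limma, 241 without the libraries that stand apart, 185 with the number series, 173 with the tuft covariate and 63 in 1 fit, and 58 to 667 with 1 left out (mouse 10 and mouse 1 on RFD). The members called (2) became 4 with DESeq2, 3 with the number series (Rdh7 added) and 3 without the libraries that stand apart (Dhrs4 added), and 2 to 6 with 1 left out, 6 without mouse 1 on RFD. The other retinoid genes called (4) became 2 with RLE size factors and 2 in 1 fit, and 1 to 7 with 1 left out. In the interaction no filter gave 65 genes and DESeq2 1. Between sets on RFD, 204 genes became 590 with DESeq2, 916 with no filter and 133 with the enterocyte covariate. The 1 member called there (Rbp2) became 0 with the enterocyte covariate and without the libraries that stand apart, and DESeq2 called 1 other retinoid gene against 0. On HFD, 810 became 1544 with DESeq2 and 1554 with limma. The 1 member called became 2 with DESeq2 (Dhrs4 added) and limma (Aldh1a1 added) and 0 with the enterocyte covariate, and the 2 other retinoid genes became 1 with no filter. On the TPM scale the median of all genes moved to 0.33 on HFD and 0.22 on RFD, from 0.05 and -0.04. Signs turned on RFD for Isx (0.0343 with no filter, 0.0553 with limma, 0.144 without the libraries that stand apart), Lrat (-0.49 with the enterocyte covariate, -0.41 without those libraries), Rdh7 (0.12 with limma, 0.0387 without them) and Aldh1a1 (0.153 with limma, 0.056 without them). They turned on HFD for Bco1 (0.18) and Dhrs3 (0.12) with limma and for Isx (-0.10), Rdh7 (-0.58) and Aldh1a1 (-0.0007) with the enterocyte covariate. The r of Aldh1a1 with enterocyte markers on RFD at 22 weeks turned to 0.711 without mouse 3. Bco1 was limited by its depth of at most 41 reads.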

Other observations

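Among the members themselves, the closest pair within the groups was Rdh7 and Aldh1a1, with a mean within-group r of 0.781 over 4 groups, followed by Isx and Dhrs4 (0.696) and Lrat and Dhrs3 (0.666). Scarb1 and Lrat had the lowest mean (-0.184). These are descriptions over libraries that share depth and cell makeup.

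Rbp4 and Rdh12, 2 other retinoid genes, differed between the sets on HFD. Rbp4, which encodes the plasma retinol carrier, had a median of 0.534 CPM and a highest value of 89.2 CPM at 9 weeks and no read in 10 of 12 libraries at 22 weeks (log2 difference -4.10, SE 1.07, adjusted p = 0.0193, edgeR's quasi-likelihood test), so that 1 mouse held most of the 9-week reads. Rdh12, a retinol dehydrogenase gene, had no read in 9 of 11 libraries at 9 weeks and a median of 1.58 CPM at 22 weeks (3.12, SE 0.96, adjusted p = 0.0599 from the same test). Neither was called with DESeq2.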
